A study of Danio rerio with 6 samples.

Results

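The T-box genes tbx20, tbx1, tbx2a, tbx2b, tbx3a, tbx5a, tbx5b and tbx18 were followed in regenerating zebrafish hearts. They were found by gene symbol and make up 8 of the 31701 genes in the table. T-box factors are transcription factors that share a DNA-binding domain, the T-box, and several of them pattern the vertebrate heart. Some activate transcription (Tbx5, Tbx20 and Tbx1 in many settings) and others mainly repress it (Tbx2, Tbx3 and Tbx18 in many settings). The gene annotation also gives tbx20 negative regulation of transcription. Members compete for similar DNA sites and act together with partners such as Nkx2-5 and the GATA factors, so that the balance between members matters in a tissue as well as the level of each.

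The tissue was the ventricular apex of adult fish at 7 days post amputation (dpa), taken as whole tissue after daily doxycycline (DOX). In the tbx20-overexpressing group the fish carried the TRE3G:tbx20 responder and the cmlc2:TetON-3G driver, whose cmlc2 promoter limits the induced tbx20 to cardiomyocytes (CMs). In the control group the fish carried the responder without the driver and received DOX as well. Each group had 3 biological replicates, which pooled 6 hearts in replicate 1 and 8 hearts in replicates 2 and 3. The p-values measure the spread between these pools.

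Total counts ranged from 12993988 to 14002211 in tbx20-overexpressing libraries and from 13218054 to 17754483 in control libraries. The TMM factors, which rescale these totals, ran from 1.02 to 1.31 in tbx20-overexpressing and from 0.748 to 1.01 in control libraries, so the scaling itself differed between the groups. Mitochondrial genes took 11.1 to 15% of the counts in tbx20-overexpressing and 16.3 to 20.9% in control libraries. The lens crystallin gene cryaa, whose promoter drives the lens reporter of both transgenes, had 167, 79 and 60 counts in tbx20-overexpressing libraries and 0 in every control library. The apex was bulk tissue, in which fewer cells of a type and less RNA per cell cannot be told apart. Defining CM genes were abundant in all libraries, with summed levels of 26249 to 37385 FPKM for 10 genes in tbx20-overexpressing and 37731 to 48972 FPKM in control hearts.

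The first question was whether tbx20, the induced gene, was higher in the overexpressing hearts. Tbx20 is a cardiac T-box factor that CMs need for their growth and identity. Its level was 133, 19.0 and 37.2 CPM (counts scaled to a common library depth, TMM-normalised) in tbx20-overexpressing replicates 1, 2 and 3, against 41.3, 8.59 and 20.3 CPM in control replicates 1, 2 and 3. The underlying counts were 1864, 287 and 630 in tbx20-overexpressing libraries and 502, 114 and 354 in control libraries. Each overexpressing library was above the control library of its own number, while the groups overlapped. tbx20-overexpressing replicate 2 lay below control replicates 1 and 3, and tbx20-overexpressing replicate 3 lay below control replicate 1. The counts do not separate transcripts of the transgene from those of the endogenous gene. 

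The difference in tbx20 was 1.43 on the log2 scale (SE 0.75, 95% interval -0.27 to 3.14) in the unpaired edgeR quasi-likelihood test, with an adjusted p of 0.649. The exact two-sided permutation test on log2 CPM, whose smallest possible p is 0.1 with 3 against 3, gave p = 0.5. The 3 within-number differences were 1.69, 1.15 and 0.87. With the replicate number as a block, edgeR gave a log2 fold change of 1.24 (SE 0.19, 95% interval 0.79 to 1.69) and an adjusted p of 0.0479. The sample titles give only a number. The pairing was read from these same data, in which libraries of like number deviated together across genes. In this paired fit tbx20 rose past the adjusted threshold. The adjusted p was 0.0510 in the block fit with RLE size factors and 0.0793 in the block fit without both libraries of replicate 1, where the log2 fold change was 1.0. The unpaired log2 fold change depended on replicate 1, being 0.26 without tbx20-overexpressing replicate 1 and 2.13 without control replicate 1.

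**Figure D1:**
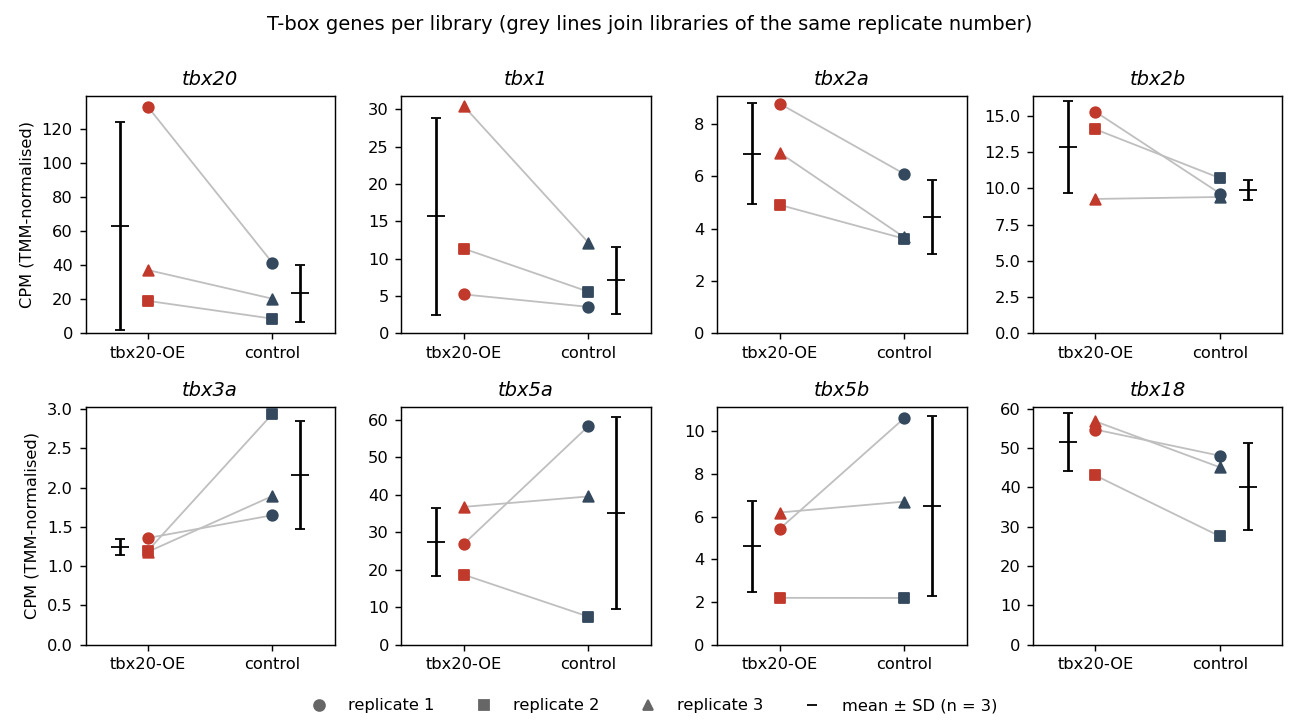
Level of each T-box gene in CPM (TMM-normalised, linear axes from 0) in the tbx20-overexpressing (left) and control (right) libraries, with grey lines joining libraries of the same replicate number and black bars showing the mean ± SD (n = 3). tbx20 is higher in each overexpressing library than in the control joined to it, whereas the lines of tbx5a cross.

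Across the 8 genes, 0 passed the unpaired call rule of an unadjusted p under 0.05 with an absolute log2 fold change above 0.5, which 8.83% of the 15686 tested genes passed. The same test gave 0 members and 0.0% of all genes at an adjusted p under 0.05. At an unadjusted p under 0.05 alone it gave 0 members and 9.23% of all genes. DESeq2 gave 0 members by the adjusted p, against 239 genes or 1.52%. With the replicate block, tbx20, tbx1 and tbx2a passed the unadjusted rule as higher in overexpressing hearts, against 6.05% of all genes passing it upwards and 8.06% downwards. By the adjusted p with the block, tbx20 was the 1 member called, against 0.536% of all genes called and 0.108% called upwards. All 8 members passed the filter on low counts.

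tbx1 encodes the factor that in mammals and fish shapes the pharyngeal apparatus and outflow tract. It had 5.21, 11.3 and 30.4 CPM in tbx20-overexpressing replicates 1, 2 and 3, against 3.54, 5.58 and 12.2 CPM in control replicates 1, 2 and 3. The order of the replicate numbers was the same in both groups, and each overexpressing library exceeded its like-numbered control. The unpaired edgeR log2 fold change was 1.14 (SE 0.65, adjusted p = 0.690). With the replicate block it was 1.0 (SE 0.22, adjusted p = 0.0737), and the pair differences were 0.55, 1.02 and 1.32. Without tbx20-overexpressing replicate 3 the unpaired value was 0.21, and without control replicate 3 it was 1.79.

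The library in which tbx1 was highest was tbx20-overexpressing replicate 3. In FPKM, which use raw totals, it also had the highest sums of T and NK cell, macrophage, erythrocyte and epicardial and fibroblast markers. It had the largest TMM factor, 1.31, and in CPM the epicardial and fibroblast genes did not all peak in it. postnb was at 1508 CPM in tbx20-overexpressing replicate 2 and 967 CPM in replicate 3, and fn1a at 1052 and 1866 CPM. The summed level of 5 T and NK cell markers was 1.18, 1.97 and 11.1 FPKM in tbx20-overexpressing replicates 1, 2 and 3, against 1.17, 0.900 and 2.52 FPKM in control replicates 1, 2 and 3. The 8 macrophage markers summed to 356, 363 and 746 FPKM in tbx20-overexpressing libraries and to 218, 255 and 324 FPKM in control libraries. The 7 erythrocyte rows summed to 467, 1568 and 3435 FPKM in tbx20-overexpressing libraries and to 1020, 1510 and 1113 FPKM in control libraries. Among the T and NK cell markers, cd8a was at 0, 1 and 30 counts in tbx20-overexpressing and 0, 0 and 13 counts in control libraries. The smooth muscle and outflow tract genes went both ways. elnb, like tbx1, was highest in replicate 3 of both groups, at 63.6 CPM in tbx20-overexpressing and 44.6 CPM in control. acta2 was lowest there, at 218 and 121 CPM. The part of any of these cell types in the level of tbx1 was not tested. Of the T and NK cell genes 1 of 4 tested, cd4-1, passed the unadjusted rule as higher, against 3.27% of all tested genes. Its log2 fold change was 1.58 (edgeR adjusted p = 0.472), and it passed in 2 of 6 fits that left out 1 library. zap70 was the most abundant of the list, at 0.920 FPKM on average.

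tbx2a and tbx2b encode paralogous repressors that in the embryo keep the atrioventricular canal from taking on chamber identity. tbx2a had 8.78, 4.91 and 6.90 CPM in tbx20-overexpressing replicates 1, 2 and 3, against 6.09, 3.62 and 3.67 CPM in control replicates 1, 2 and 3. Every pair ran upwards, by 0.52, 0.44 and 0.91 on the log2 scale, although the groups overlapped. The edgeR log2 fold change of tbx2a was 0.62 (SE 0.34, adjusted p = 0.673) unpaired and 0.63 (SE 0.24, adjusted p = 0.225) with the block. 

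tbx2b had 15.3, 14.1 and 9.26 CPM in tbx20-overexpressing replicates 1, 2 and 3, against 9.64, 10.7 and 9.40 CPM in control replicates 1, 2 and 3. Overexpressing replicates 1 and 2 were above all controls, and replicate 3 lay below its own control by 0.02 on the log2 scale. Its edgeR log2 fold change was 0.38 (SE 0.25, adjusted p = 0.751). The log2 ratio of tbx2a to tbx2b, which does not depend on library scaling, was -0.91 ± 0.55 in tbx20-overexpressing and -1.19 ± 0.47 in control libraries (SD, n = 3 each). The difference of 0.28 was within the spread (exact permutation test, p = 0.6). It was 0.03 without tbx20-overexpressing replicate 3 and 0.58 without tbx20-overexpressing replicate 2.

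tbx3a encodes a repressor known in mammals from the conduction system. It was the member with the lowest counts, 18 to 20 in tbx20-overexpressing and 20 to 39 in control libraries. Its level was 1.36, 1.19 and 1.18 CPM in tbx20-overexpressing replicates 1, 2 and 3, against 1.65, 2.94 and 1.89 CPM in control replicates 1, 2 and 3. It was the 1 member whose groups did not overlap in CPM, lying lower in overexpressing hearts as 8.27% of all tested genes did. The edgeR log2 fold change was -0.79 (SE 0.41, adjusted p = 0.650), and the exact permutation test gave its smallest possible p, 0.1. Without control replicate 2 the value was -0.52. In FPKM the groups of tbx3a touched, at 0.390 FPKM in tbx20-overexpressing replicate 3 and in control replicate 1, and total-count scaling gave a log2 fold change of -0.42. 

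tbx5a and tbx5b encode the zebrafish copies of Tbx5, a factor needed for heart and forelimb development. tbx5a had 26.8, 18.6 and 36.8 CPM in tbx20-overexpressing replicates 1, 2 and 3, against 58.3, 7.46 and 39.6 CPM in control replicates 1, 2 and 3. Replicate 2 was the lowest of both groups, and control replicate 2 minus the mean of the other controls was -2.68 log2 units. Only 0.778% of tested genes had a lower value of that deviation. The pairs of tbx5a ran in both directions, by -1.12, 1.32 and -0.11. Its edgeR log2 fold change was -0.36 (SE 0.60, adjusted p = 0.934) unpaired and -0.02 (SE 0.40, adjusted p = 0.987) with the block. The 95% interval of the block fit, -0.94 to 0.90, leaves changes of either sign within the spread.

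tbx5b had 5.43, 2.19 and 6.20 CPM in tbx20-overexpressing replicates 1, 2 and 3, against 10.6, 2.18 and 6.71 CPM in control replicates 1, 2 and 3. Like tbx5a it was lowest in replicate 2 of both groups. Its edgeR log2 fold change was -0.49 (SE 0.58, adjusted p = 0.902). The tbx5a to tbx5b log2 ratio was 2.64 ± 0.39 in tbx20-overexpressing and 2.25 ± 0.44 in control libraries (SD, n = 3 each), a difference of 0.39 (exact permutation test, p = 0.4). That difference was 0.18 without tbx20-overexpressing replicate 2 and 0.14 without control replicate 2. Leaving out control replicate 1 turned both unpaired values, to 0.22 for tbx5a and 0.050 for tbx5b. Without control replicate 2, tbx5a was -0.84 and passed the unadjusted rule.

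tbx18 encodes a factor of the epicardium, the outer layer of the heart, and of the sinus node in mammals. It had 54.7, 43.0 and 56.8 CPM in tbx20-overexpressing replicates 1, 2 and 3, against 48.0, 27.5 and 45.1 CPM in control replicates 1, 2 and 3. Every pair ran upwards, by 0.19, 0.64 and 0.33, while the groups overlapped in CPM. Its edgeR log2 fold change was 0.36 (SE 0.25, adjusted p = 0.761) unpaired and 0.39 (SE 0.16, adjusted p = 0.266) with the block. Without control replicate 2 the unpaired value was 0.14. Of the 11 epicardial and fibroblast genes, tcf21, wt1b and fn1a passed the unadjusted rule as higher, with log2 fold changes of 0.50, 0.66 and 0.70 and edgeR adjusted p-values of 0.415, 0.340 and 0.478. wt1b passed without any 1 library, whereas tcf21 passed in 3 of 6 such fits and fn1a in 2 of 6. With the replicate block wt1b, fn1a, postnb and col1a1b passed, and tcf21, at 0.499, did not reach the size that the rule asks. Under total-count scaling 9 of the 11 passed as higher. Of all tested genes, 3.27% passed as higher unpaired, 6.05% with the block and 11.7% under total-count scaling. The summed level of that list was 1542, 2824 and 3190 FPKM in tbx20-overexpressing and 1032, 1497 and 1495 FPKM in control libraries. These sums use raw totals, without the TMM factors of 1.02 to 1.31 in tbx20-overexpressing and 0.748 to 1.01 in control libraries. The part of that list in the level of tbx18 was not tested.

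**Figure D2:**
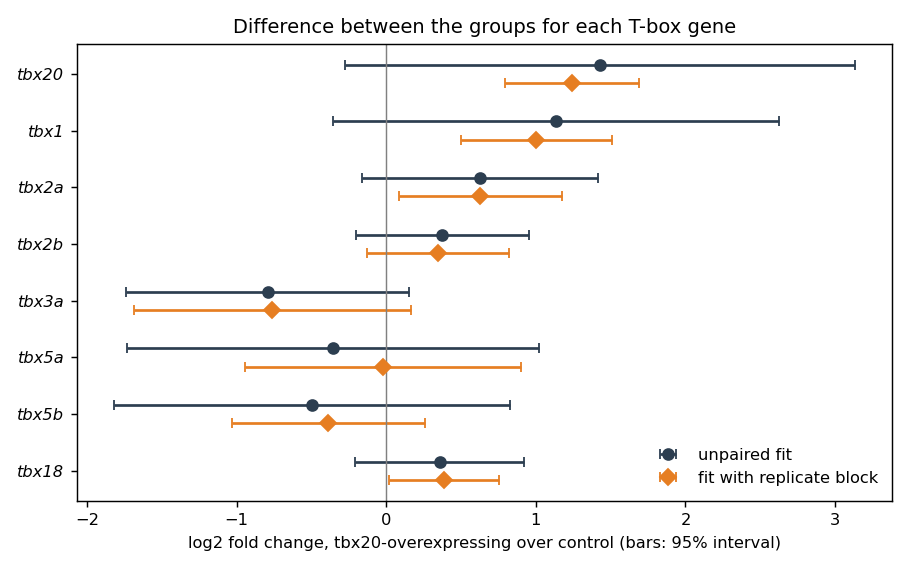
Log2 fold change of each T-box gene, tbx20-overexpressing over control, with its 95% interval in the unpaired edgeR fit (circles) and in the fit with the replicate block (diamonds). Every unpaired interval spans 0, while the block intervals of tbx20, tbx1, tbx2a and tbx18 lie above it. The intervals are not adjusted for the number of genes tested. In the block fit 17.1% of all tested genes had an unadjusted edgeR p under 0.05, in either direction. By the adjusted p of that fit only tbx20 was called.

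In the pairs, tbx20, tbx1, tbx2a and tbx18 were higher in every overexpressing library than in the control of its number, a pattern of 20.8% of tested genes. tbx3a was lower in every pair, as were 18.9% of tested genes, and tbx2b, tbx5a and tbx5b were mixed. The scaling mattered for the rest. In FPKM, which use the raw totals, tbx2b (4.62 to 5.96 FPKM in tbx20-overexpressing, 3.06 to 3.62 in control) and tbx18 (19.8 to 31.7 FPKM in tbx20-overexpressing, 8.81 to 19.4 in control) did not overlap and lay higher in overexpressing hearts, as did 19.7% of tested genes. Under total-count scaling tbx2a and tbx2b passed the unadjusted rule as higher, against 11.7% of all genes, and by limma on log2(FPKM + 1) tbx2b did, against 9.49%. Scaling by raw totals moved the median of all genes by 0.35 on the log2 scale. Relative to the median under that scaling, the differences were 1.28 for tbx20, 1.16 for tbx1, 0.58 for tbx2a, 0.32 for tbx2b, 0.30 for tbx18, -0.43 for tbx5a, -0.56 for tbx5b and -0.80 for tbx3a.

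The members varied within groups to different degrees. The within-group SD of log2 CPM was 1.29 for tbx20, 1.16 for tbx5a, 1.1 for tbx1 and 1.0 for tbx5b. These exceeded the SD of 96.4%, 95%, 94.0% and 92.2% of tested genes in that order. tbx20 varied 6.99-fold between its highest and lowest overexpressing library and 4.81-fold between its highest and lowest control library. tbx5a varied 7.82-fold among controls. The same replicate number was the lowest in both groups for 7 of the 8 members, with tbx3a the exception, against 52.8% of tested genes. The full order of the numbers was shared by tbx20, tbx1 and tbx2a, 3 of 8, against 30.9% of tested genes.

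**Figure D3:**
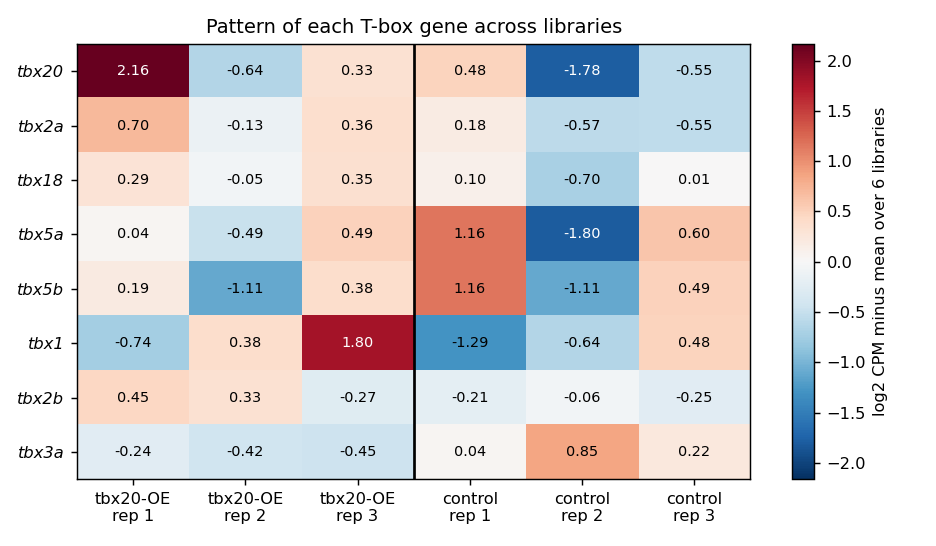
Log2 CPM of each T-box gene minus its own mean over the 6 libraries, with tbx20-overexpressing libraries left of the black line and control libraries right of it. tbx20, tbx5a and tbx5b share low values in control replicate 2 (-1.78, -1.80 and -1.11), whereas tbx1 peaks in tbx20-overexpressing replicate 3 (1.80).

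Patterns across the 6 libraries were compared by the root mean square difference between centred log2 CPM profiles, a description without a test. tbx5a had tbx5b as the 55th nearest of 15685 genes, at a difference of 0.39. tbx5b had tbx5a as its 134th nearest. The nearest genes to tbx5a were irf4a and orai1b (0.10 and 0.14), and those to tbx5b were gfpt1 and CDK18 (0.07 and 0.08). The 5 nearest to tbx20 were si:ch211-108c6.2 (0.31), itchb (0.32), lgi3 (0.33), zbtb7a (0.35) and mid1 (0.35), all at 0.703 to 2.48 CPM on average. The profile of tbx1 was closest to those of si:dkey-117a8.4 and rtn4rl2b (0.21 and 0.22). 

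For tbx3a the nearest were hadh, a mitochondrial enzyme of fatty acid oxidation, at 0.07 and gbas at 0.08. hadh had an edgeR log2 fold change of -0.82 and gbas of -0.82, next to -0.79 for tbx3a. The nearest genes were git2b (0.08) and zgc:112998 (0.09) for tbx2a, klc4 (0.06) and ywhaqb (0.07) for tbx2b, and osbpl2b (0.07) and arfip2b (0.08) for tbx18. With 6 libraries and 15685 candidates, close profiles are frequent and say nothing of shared control.

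Levels were compared between members per length, in FPKM. The order by median over the 6 libraries was tbx18 (19.6 FPKM), tbx20 (13.8 FPKM), tbx5a (11 FPKM), tbx2b (4.12 FPKM), tbx5b (3.76 FPKM), tbx1 (3.55 FPKM), tbx2a (0.995 FPKM) and tbx3a (0.390 FPKM). The ranges of neighbours in this order overlapped in every case. tbx18 was above tbx20 in 5 of 6 libraries, and tbx1 above tbx2a in 6 of 6. By the mean of each group, tbx20 ranked 1 in tbx20-overexpressing hearts at 32.1 FPKM and 3 in control hearts at 10.2 FPKM. The mean in overexpressing hearts rested on replicate 1, at 63.9 FPKM. In tbx20-overexpressing replicates 2 and 3 tbx20 was at 9.64 and 22.8 FPKM, below tbx18 at 19.8 and 31.7 FPKM.

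tbx20 made up 57.9%, 19.5% and 23.3% of the summed FPKM of the 8 members in tbx20-overexpressing replicates 1, 2 and 3, against 26.9%, 14.8% and 17.2% in control replicates 1, 2 and 3. The share was higher in 3 of 3 pairs, but only tbx20-overexpressing replicate 1 stood above every control library. The means were 33.6 ± 21.2% in tbx20-overexpressing and 19.6 ± 6.42% in control libraries (SD, n = 3 each), a difference of 14 percentage points (exact permutation test, p = 0.4). Without tbx20-overexpressing replicate 1 the difference was 1.77 percentage points.

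**Figure D4:**
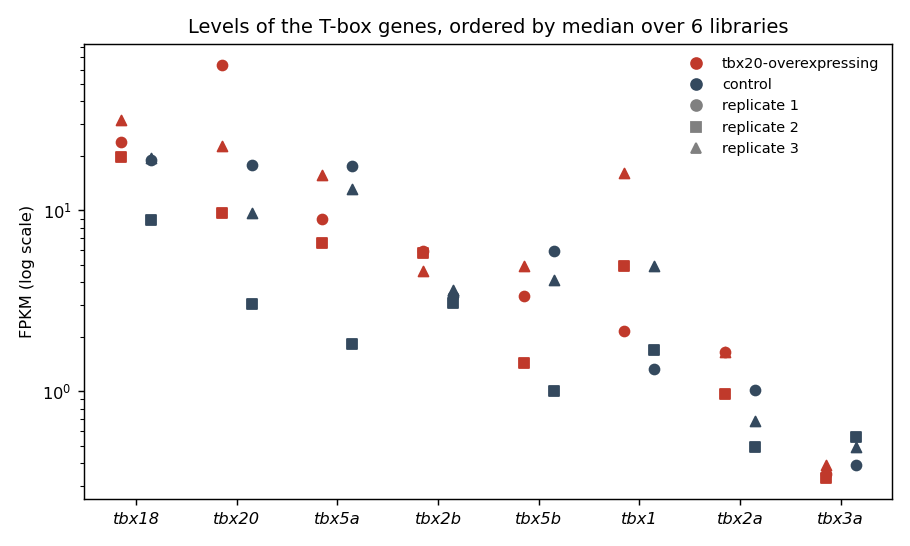
FPKM of the 8 T-box genes (log axis), ordered by median over the 6 libraries, with tbx20-overexpressing libraries in red left of control libraries in dark blue and marker shape giving the replicate number. tbx18, tbx20 and tbx5a have medians of 11 FPKM or more, and tbx3a lies lowest, at a median of 0.390 FPKM.

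Few of the other T-box genes had enough counts for a test. Of 21 further T-box symbols, 16 were in the table, 15 had a count and 2, tbx6 and mgaa, passed the filter. The edgeR log2 fold change was -0.10 for tbx6 and 0.12 for mgaa, and neither was called. tbx21, which in mammals drives T helper and NK cell identity, had 4, 0 and 31 counts in tbx20-overexpressing replicates 1, 2 and 3 and 1, 3 and 11 counts in control replicates 1, 2 and 3. Its highest count was in 1 library, tbx20-overexpressing replicate 3, and its relation to tbx1 or to T and NK cells was not tested.

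Partners and targets of cardiac T-box factors were read from lists. Of 17 tested partners, 0 were called higher and 1 lower, against 3.27% and 5.56% of all genes, and the median log2 fold change was 0.07 against 0.04 over all tested genes. The called gene was mef2ca, a MADS-box factor of muscle differentiation, at 72.2 CPM on average in tbx20-overexpressing and 142 CPM in control hearts (log2 fold change -0.98, SE 0.25, edgeR adjusted p = 0.302). It passed the rule without any 1 library. Under total-count scaling 1 partner was called higher and 1 lower, against 11.7% and 1.64% of all tested genes. gata5, the most abundant partner, had a log2 fold change of 0.07.

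Of 23 listed target symbols 16 were found and 14 were tested. Of these 14 targets, 0 were called higher and 1 lower, against 3.27% and 5.56% of all tested genes. Their median log2 fold change was 0.09, against 0.04 over all tested genes. The called gene was atp2a2a, which encodes the calcium pump of the sarcoplasmic reticulum, with a log2 fold change of -0.66 (SE 0.27, edgeR adjusted p = 0.514). It passed the rule in 2 of 6 fits that left out 1 library. Under total-count scaling atp2a2a was at -0.30 and not called. With that scaling 4 targets were called higher and 0 lower, against 11.7% and 1.64% of all tested genes. nppa, the natriuretic peptide gene known as a target of Tbx5 and Tbx20 in mammals, was the most abundant, at 4567 CPM in tbx20-overexpressing and 4732 CPM in control hearts (log2 fold change -0.05).

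Among the CM markers cmlc1, actc1a and tpm4a passed the unadjusted rule as lower (log2 fold changes -0.95, -1.02 and -0.82, edgeR adjusted p-values 0.460, 0.415 and 0.483), and the median of the 10 was -0.55. Of all tested genes 5.56% passed the unpaired rule as lower and 3.27% as higher. Without control replicate 2 none of these 3 CM markers passed, and over the 6 fits that left out 1 library cmlc1 and tpm4a passed in 3 and actc1a in 4. With the replicate block 5 of the 10 passed as lower, and under total-count scaling 2 did, against 8.06% and 1.64% of all tested genes. Cells of this type are those in which the driver induces tbx20, and the part of their share in the level of tbx20 was not tested. Of the 10 endothelial and endocardial genes, among which klf2a was the most abundant, cdh5, pecam1 and egfl7 passed as lower (-0.51, -0.50 and -0.67), against 5.56% of all tested genes. They passed in 2, 2 and 3 of 6 fits that left out 1 library. The median of the 10 was -0.32, and fli1a, tie1 and nfatc1 were at -0.01, 0.002 and 0.10. Under total-count scaling cdh5, pecam1 and egfl7 were at -0.17, -0.16 and -0.34, and 0 genes of that list were called. Of 8 macrophage genes, among which c1qc was the most abundant, spi1b passed as higher (0.62), in 2 of 6 fits that left out 1 library. Of that list 4 were called higher with the block and 5 under total-count scaling, against 6.05% and 11.7% of all tested genes. Of 7 smooth muscle and outflow tract rows, among which tagln was the most abundant, acta2 passed as higher (1.64), in all such fits but the 1 without tbx20-overexpressing replicate 2. The unpaired edgeR adjusted p of acta2 was 0.366. With the block acta2 was 1.47, with an edgeR adjusted p of 0.0481. By the adjusted p with the block, 0.108% of all tested genes were called upwards. The median of the 7 rows was 0.13 unpaired and 0.0003 with the block, and 3.27% of all tested genes passed the unpaired rule as higher. The 6 atrial and atrioventricular canal genes, with nppa the most abundant, and the 7 erythrocyte rows, with hbaa1 the most abundant, had 0 calls.

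**Figure D5:**
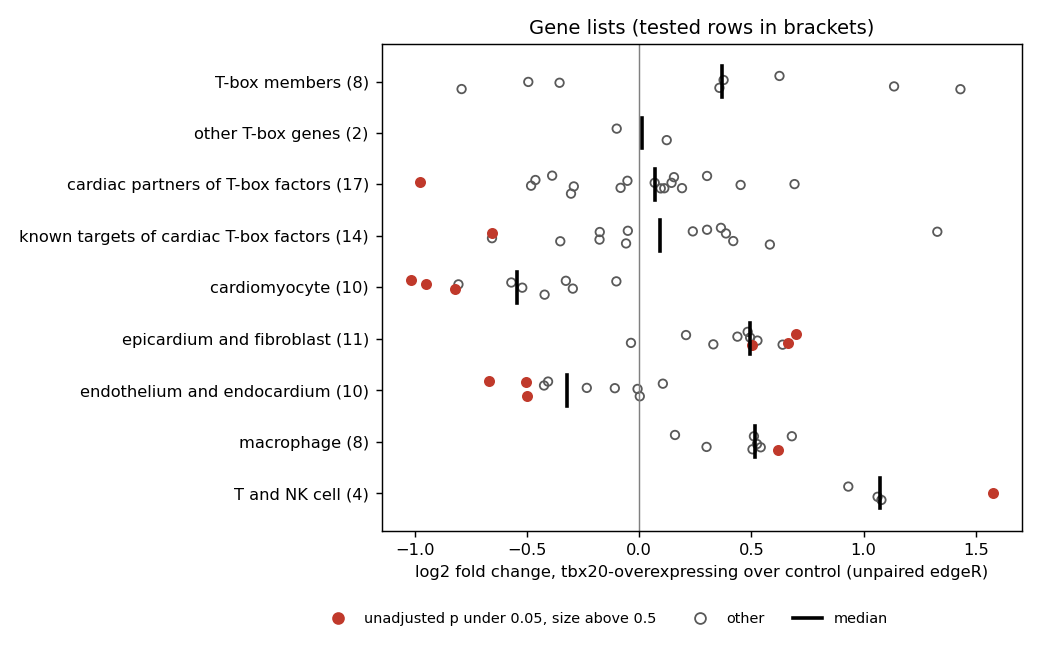
Unpaired edgeR log2 fold change, tbx20-overexpressing over control, of each tested gene in 9 lists, with filled points for genes past the unadjusted rule and a bar at the median of each list. None of the 8 T-box members is filled, and the CM list lies left of 0 with a median of -0.55 while the epicardial and fibroblast list, apart from pdgfra at -0.04, lies right of it with a median of 0.49.

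The annotation in the table gave 2 terms to all 8 members, nucleus and sequence-specific transcription factor activity, and heart looping to tbx20, tbx2b and tbx5a. In the gene order of the GRCz12tu assembly, tbx5a and tbx3a are neighbours, and tbx2b lies next to tbx4, which did not pass the filter. The tbx20 neighbour herpud2 had a log2 fold change of -0.51 (edgeR adjusted p = 0.670), opposite in sign to tbx20. Of the tested neighbours, only srrm4 next to tbx1 passed the unadjusted rule, which 8.83% of all tested genes passed. srrm4 was at -0.69 (edgeR adjusted p = 0.421), also opposite in sign to tbx1.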

How the data were processed

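Total RNA of pooled ventricular apex tissue was sequenced as 6 libraries, 3 tbx20-overexpressing and 3 control. The tools in the submitters' processing notes are Trimmomatic 0.30, HISAT2 2.0.1 and DESeq, with the Ensembl GRCz10 annotation. The authors deposited raw counts per gene, without normalization, and FPKM made by the authors from those counts, the exonic length and the total count (190206 of 190206 values matched this within 0.0051). The counting tool, its use of strand and its handling of reads shared between paralogs such as tbx5a and tbx5b are not given in the sources used here.

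Counts were filtered with filterByExpr, normalised by TMM and tested in R 4.3.3 with edgeR 4.0.16 (quasi-likelihood, two-sided, Benjamini-Hochberg over 15686 genes). CPM values are scaled by TMM, and log2 CPM used a pseudocount of 0.5 counts. A gene was called when its log2 fold change exceeded 0.5 in size with an unadjusted p under 0.05, or when its adjusted p was under 0.05. The standard error was the log2 fold change over the square root of F. Levels between genes were compared in FPKM. Ratios within libraries used an exact permutation test over 20 assignments. Both fits were tested on simulated data with 200 known changes and no replicate effect, so the check does not cover the pairing. The changes were of 2 on the log2 scale, larger than the difference of any member with all 6 libraries. They were placed in genes above a count minimum, and the simulated spread followed from the mean level alone. The check therefore does not give the recovery of changes of the members' size and spread. At an adjusted p under 0.05 the unpaired and block fits recovered 88% and 88.5% of these changes. Of the genes they called, 1.68% and 3.80% were false.

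Replicate numbers were taken as pairs, although the sample titles give only a number. Deviations from the group means correlated across genes at 0.430, 0.391 and 0.432 for like numbers and at -0.301 to -0.126 for unlike numbers. Deviations within a group cancel for every gene, so positive values for like numbers push those for unlike numbers negative. The negative values are therefore not separate evidence of pairing. Like-numbered pools held equal numbers of hearts, but replicates 2 and 3 both held 8. No libraries were duplicates (chi-square per degree of freedom 44.8 to 79.2). The members and lists were chosen with earlier results of these data known. All members were named. Of the partner and target lists, up to 4 called genes per direction and the most abundant gene were named. Of the marker lists the most abundant gene was named, and called markers were added after their values were seen. cd8a, elnb, fli1a, nfatc1, pdgfra, tbx21 and tie1 were named outside these rules. The nearest profiles (5 for tbx20, 2 for the others) and the gene neighbours were also named. Alternatives were RLE factors, total-count scaling, DESeq2 1.42.0, no filter, at least 10 counts in every library, limma 3.58.1 on log2(FPKM + 1) or with 0.1 in place of 1, leaving out single libraries, and a replicate block. Block fits with total-count or RLE scaling, or without a pair, were chosen after seeing the data. All 8 member IDs matched the gene name table. Sequences of the members were not used here.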

Additional observations from a re-analysis of the deposited data

How the results depend on the processing

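The precision of every member was limited by 3 pools a group, and of tbx3a also by counts of 18 to 39. The log2 fold changes of tbx20, tbx1, tbx2a, tbx2b, tbx3a and tbx18 kept their direction under each of the 19 alternatives. Total-count scaling moved the median of all genes to 0.38, from 0.04, and the share of higher calls to 87.8%, from 37.0%. Of 8 settings for each of the ratios and the tbx20 share, none reversed a difference, but leaving out single libraries moved them widely. The mean of the within-replicate differences was among these settings. It equals the main difference by construction and could not reverse it. The tbx20 share difference of 14 percentage points was 1.77 without tbx20-overexpressing replicate 1 and 21.0 without tbx20-overexpressing replicate 2. The tbx2a to tbx2b difference of 0.28 was 0.03 without tbx20-overexpressing replicate 3. The tbx5a to tbx5b difference of 0.39 was 0.14 without control replicate 2.

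With the replicate block, tbx20 was 1.24 and passed the adjusted threshold, 84 genes passed it in all, 2213 genes passed the unadjusted rule, and 3 members passed the unadjusted rule and 1 the adjusted one. It changed the adjusted call of no other member. The block fits with all 6 libraries tested 15686 genes. Those without both libraries of replicate 1, 2 and 3 tested 16053, 15964 and 15678 genes in that order. With the block and total-count scaling, tbx20 was 1.59 and tbx1 1.36, both past the adjusted threshold (2 members, 401 genes), tbx5a was 0.33, and 5 members and 3999 genes passed the unadjusted rule. With the block and RLE factors, 3 members and 2207 genes passed the unadjusted rule, and 54 genes the adjusted one. In the block fit without replicate 1, tbx5a was 0.55, 2 members and 2323 genes passed the unadjusted rule, and 125 genes the adjusted one. Without replicate 2, tbx20 was 1.29 and tbx1 1.01, both past the adjusted threshold (2 members, 1094 genes), and 4 members and 2708 genes passed the unadjusted rule. Of these 4 members, tbx20, tbx1 and tbx2a were higher in overexpressing hearts, and tbx5a, at -0.60, was lower. Without replicate 3, tbx20 was 1.44 and past the adjusted threshold (1 member, 142 genes), tbx5a was 0.048, and 2 members and 1604 genes passed the unadjusted rule. The cause was not tested.

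Without the block, tbx5a was 0.26 by limma on log2(FPKM + 1) and 0.37 on log2(FPKM + 0.1). By the unadjusted rule each of these fits called 1 member, tbx2b, against 1750 and 1990 of 15686 genes. limma on log2(FPKM + 0.1) called 3 genes by the adjusted p, DESeq2 called 239, and edgeR with no filter called 32. Total-count scaling called 2 members and 2100 of 15686 genes by the unadjusted rule. With no filter 1 member, tbx20, was called, and 1922 of 24714 genes. Leaving out each library gave -0.84 to 0.22 for tbx5a and -0.92 to 0.050 for tbx5b. These fits tested 15947 to 16222 genes. They called 0 to 2 members and 1097 to 1568 genes by the unadjusted rule, and 0 members and 0 to 2 genes by the adjusted one. The cause was not tested.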
